A study of Saccharomyces cerevisiae with 6 samples.

Results

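The ino4 mutant of budding yeast, Saccharomyces cerevisiae, was compared with wild type (WT) at 4 h in meiosis, gene by gene, from RNA sequencing. A gene was compared when its value was above 0 in both genotypes and at least 5 in 1 of them, when its entry named a single gene, and when its locus was at least 300 bp long and overlapped no other entry. Of the 6932 entries in the authors' table, 4865 met this rule. The study sequenced RNA from 6 samples, 2 each of WT, a bas1 mutant and the ino4 mutant, all taken at 4 h in meiosis from cultures sporulating in 2% potassium acetate at 30 °C. All were first grown for 13.5 to 14 h in presporulation medium with 1% yeast extract, 2% peptone and 1% acetate. The strain background, the nature of the ino4 and bas1 mutations, any marker genes in the strains and the ploidy of the cells are stated nowhere in the sources used here. The authors' table holds 1 combined value per gene and genotype, in FPKM (fragment counts divided by gene length and by the size of the library), made from both samples in a way that is not stated. Neither the spread between samples nor the read depth is known, so no test or interval could be given. What follows is the size of differences between combined values, and lower and higher refer to those values alone.

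Ino4 is a basic helix-loop-helix transcription factor that binds DNA as a dimer with Ino2, at a short sequence called the inositol-responsive element. When inositol is scarce the dimer activates genes for the synthesis of inositol and of the phospholipids phosphatidylserine, phosphatidylethanolamine, phosphatidylcholine and phosphatidylinositol, and the repressor Opi1 counteracts it. Sporulation is a starvation response in which a diploid cell passes through meiosis and encloses each haploid nucleus in a newly made prospore membrane, which calls for new phospholipid, and then in a spore wall. Bas1, the factor mutated in the other strain, activates purine and histidine synthesis genes. The question the design poses is how the transcripts of meiotic cells differ when either factor is mutated.

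INO4 itself was the lowest gene of all relative to WT. Its level was 307 FPKM in WT, 271 in the bas1 mutant and 0.339 in the ino4 mutant, which matches the label. On the scale used throughout, the difference of log2(FPKM + 1) between ino4 and WT, this was -7.85. The pseudocount of 1 makes differences of genes with low values appear smaller than they are. INO4 lies on chromosome XV at 111431 to 111886 (sacCer2). The genes on either side were close to their WT levels: ZEO1, which codes for a plasma membrane protein, differed by -0.19, and the open reading frame YOL107W by 0.05. INO2, which codes for the partner of Ino4, was at 41.4 FPKM in WT and 42.1 in ino4. OPI1, the repressor gene, was at 78.8 and 75.9 FPKM. Of the 7 phospholipid regulator genes compared, 4 were below WT, with a median difference of -0.05, and INO4 was the only 2-fold difference among them. The other regulator genes of this list, UME6, RPD3, SIN3 and TUP1, lay between -0.18 and 0.18. The other basic helix-loop-helix factors differed little as well. Of 8 such genes, INO4 and INO2 included, 6 were below WT with a median of -0.14, and apart from INO4 they ranged from -0.30 for TYE7, a regulator of glycolytic genes, to 0.11 for RTG1, a retrograde signalling factor.

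Most transcripts had nearly the same value in ino4 as in WT. Over the 4865 genes the median difference was -0.01, the middle 50% of genes lay between -0.15 and 0.14, and the median FPKM was 56.7 in WT and 56.8 in ino4. A difference of 1 or more in size, called 2-fold here, was reached on the lower side by 46 genes, 0.946% of those compared, and on the higher side by 8 genes, 0.164%. At 1.5-fold, a difference of 0.585, 147 genes (3.02%) were lower and 53 (1.09%) were higher. Slightly more than an even share of genes, 51.3%, was below WT by any amount. The counts given for each list below are to be set against these shares of all genes. Only 64 genes reached 5 FPKM in a single genotype. Of the 26 that were under 5 in WT, 6 were 2-fold higher in ino4, and of the 38 that were under 5 in ino4, 10 were 2-fold lower. Genes that passed in a single genotype had to differ between the genotypes.

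**Figure D1:**
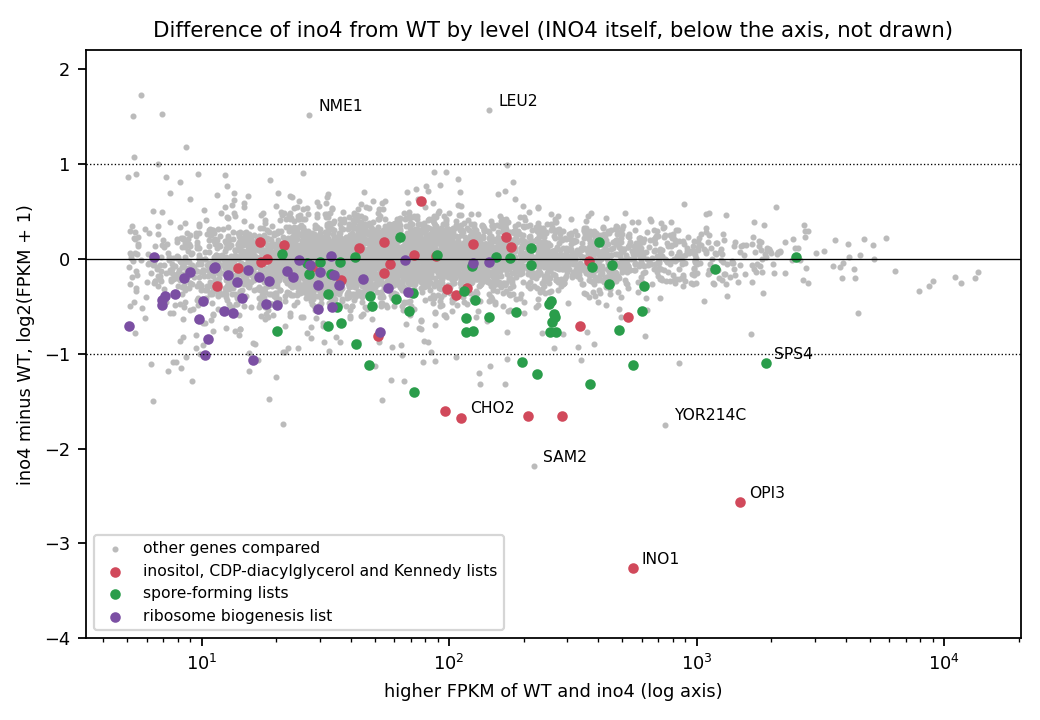
Each point is a gene, with the higher FPKM of WT and ino4 on a log axis and the ino4 minus WT difference of log2(FPKM + 1) on the vertical axis. Dotted lines mark 2-fold. Inositol and phospholipid genes and spore-forming genes extend below the lower line at medium and high levels, INO1 at -3.26 and OPI3 at -2.56, whereas most genes above the upper line lie at the left edge, at low levels.

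The main genes that make inositol, import it and supply CDP-diacylglycerol, namely INO1, ITR1 and CDS1, were among the lowest in ino4. INO1, which codes for inositol-3-phosphate synthase, the enzyme that makes inositol from glucose 6-phosphate, was at 551 FPKM in WT, 434 in bas1 and 56.6 in ino4. WT was thus 9.74 times ino4. ITR1, the gene of the main inositol transporter, was at 208 FPKM in WT and 65.1 in ino4, a difference of -1.66. CDS1, whose product makes the CDP-diacylglycerol that both phosphatidylinositol and phosphatidylserine are built from, was at 96.3 and 31.1 FPKM, a difference of -1.60. These 3 were the only genes 2-fold apart among the 13 compared for inositol and phosphatidylinositol, where 0.946% of all genes were 2-fold lower. The list's median difference was 0.00 and 6 of the 13 were below WT, so the other 10 lay on both sides of WT. PIS1, which joins inositol to CDP-diacylglycerol, was at 112 FPKM in WT and 125 in ino4. The second inositol transporter gene ITR2 differed by -0.31, and the inositol monophosphatase genes INM1 and INM2 by 0.00 and 0.03. The genes that phosphorylate phosphatidylinositol, namely VPS34, STT4, PIK1, LSB6 and MSS4, lay between -0.06 for PIK1 and 0.23 for MSS4, and the lipid phosphatase gene SAC1 was at -0.09.

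The methylation steps toward phosphatidylcholine were also well below WT. OPI3, whose product carries out the later methylations of phosphatidylethanolamine, was the most abundant transcript of the group, at 1496 FPKM in WT, 1051 in bas1 and 252 in ino4, a difference of -2.56. CHO2, the gene of the first methylation, was at 112 FPKM in WT and 34.4 in ino4, a difference of -1.68. CHO1, the phosphatidylserine synthase gene, was lower by less than 2-fold, at 336 and 206 FPKM. Of the 8 genes compared on the CDP-diacylglycerol route, 7 were below WT (51.3% of all genes), with a median of -0.12. Of these, 2 were lower by 2-fold or more (0.946% of all genes). The phosphatidylserine decarboxylase gene PSD2 differed by -0.10. Its mitochondrial counterpart PSD1 overlaps another entry and was not among the genes compared, and it is listed at 98.4 FPKM in WT and 66.6 in ino4. The cardiolipin branch was close to WT for TAM41 (-0.02), PGS1 (-0.03) and CRD1 (-0.15). GEP4, the phosphatase of the same branch, which the table lists as YHR100C, was the exception on the higher side at 50.0 FPKM in WT and 76.9 in ino4, a difference of 0.61.

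On the Kennedy route, which builds phosphatidylcholine and phosphatidylethanolamine from imported choline and ethanolamine, uptake and the last step were furthest below WT. HNM1, the gene of the choline and ethanolamine transporter, was at 284 FPKM in WT and 89.8 in ino4, a difference of -1.65. The final transferase genes EPT1 and CPT1 differed by -0.82 and -0.61, CPT1 being the more abundant at 526 FPKM in WT and 343 in ino4. The kinase genes CKI1 (choline) and EKI1 (ethanolamine) differed by -0.31 and -0.22. The CTP-dependent transferase genes of the middle step, PCT1 and ECT1 (listed as MUQ1), were at 0.13 and 0.04. Among genes that handle breakdown products, GPC1 (listed as YGR149W), which recycles glycerophosphocholine, was at -0.38, the glycerophosphodiester permease gene GIT1 at -0.29 and the phospholipase gene NTE1 at 0.18. In all, 7 of 10 genes were below WT (51.3% of all genes), with a median of -0.30. Of these, 1 was lower by 2-fold or more (0.946% of all genes) and 3 by 1.5-fold or more (3.02%). Genes of phosphatidic acid and neutral lipid turnover did not reach 1.5-fold in either direction: 12 of 20 were below WT, the median was -0.06, and they ranged from -0.32 for NEM1 to 0.38 for SPO7, whose products are subunits of the same phosphatase complex.

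**Figure D2:**
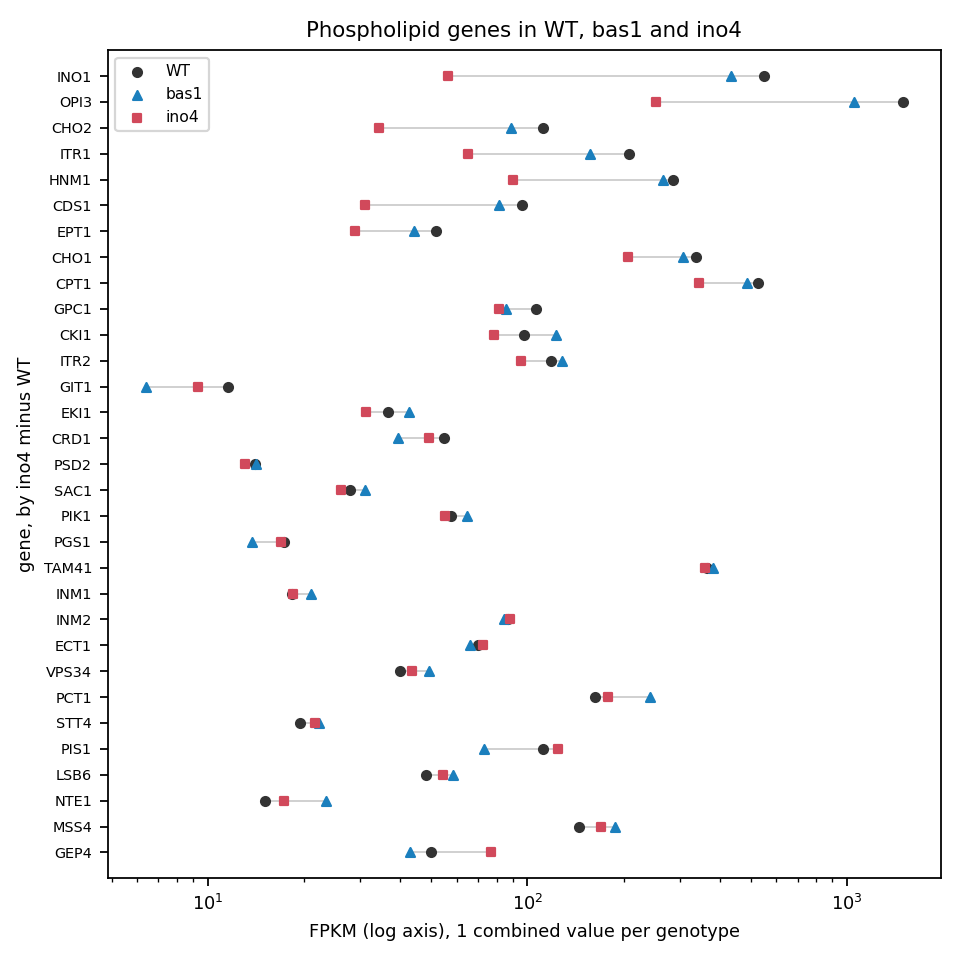
FPKM of the inositol, CDP-diacylglycerol route and Kennedy route genes in WT (circles), bas1 (triangles) and ino4 (squares) on a log axis, ordered by the ino4 minus WT difference. The 6 genes at the top, INO1 to CDS1, have ino4 values at least 2-fold below WT with bas1 between them or near WT, and GEP4 at the bottom is the only gene shown that is 1.5-fold above WT.

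The inositol-responsive element has the core CATGTG, so the promoter windows of the genes with the lowest values were read, from 250 bases before the start codon to 50 bases into the gene. The sequences below are from RefSeq, assembly R64, and are shown 5′ to 3′ on the strand of the gene. INO1 and OPI3 are shown because they were the lowest phospholipid genes and both hold the core at 2 places. PSD2 and PGS1 also hold it at 2 places and were close to WT, at -0.10 and -0.03. Capitals mark CATGTG on either strand, which reads CACATG when it lies on the strand opposite the gene.
INO1, chrX:135884-136183, minus strand: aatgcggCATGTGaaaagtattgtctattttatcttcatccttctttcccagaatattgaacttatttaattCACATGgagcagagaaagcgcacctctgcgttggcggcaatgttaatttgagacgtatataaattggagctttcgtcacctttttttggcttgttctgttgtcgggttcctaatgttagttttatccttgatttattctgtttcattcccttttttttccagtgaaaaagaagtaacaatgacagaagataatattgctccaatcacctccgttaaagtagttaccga
OPI3, chrX:572886-573185, minus strand: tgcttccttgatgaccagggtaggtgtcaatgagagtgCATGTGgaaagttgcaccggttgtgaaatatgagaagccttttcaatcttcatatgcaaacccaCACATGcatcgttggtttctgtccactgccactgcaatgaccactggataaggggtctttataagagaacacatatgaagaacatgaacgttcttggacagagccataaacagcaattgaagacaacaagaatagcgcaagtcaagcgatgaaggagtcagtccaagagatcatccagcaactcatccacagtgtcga
Shorter stretches of 36 bases around a single match, on the same assembly, show the core in 5 further phospholipid or fatty acid genes. Of these, ITR1 and CDS1 were 2-fold lower, while CHO1 (-0.71), FAS2 (-0.65) and CPT1 (-0.61) were lower by less. ARG4 and GAT4, which are shown too, are not phospholipid genes and were 2-fold lower.
ITR1, chrIV:1445668-1445703, minus strand: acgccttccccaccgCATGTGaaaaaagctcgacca
CDS1, chrII:297884-297919, minus strand: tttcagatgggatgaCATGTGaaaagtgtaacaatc
CHO1, chrV:208613-208648, minus strand: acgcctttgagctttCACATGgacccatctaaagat
CPT1, chrXIV:380975-381010, minus strand: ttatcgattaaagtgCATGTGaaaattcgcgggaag
FAS2, chrXVI:108405-108440, plus strand: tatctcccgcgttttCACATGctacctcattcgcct
ARG4, chrVIII:141525-141560, minus strand: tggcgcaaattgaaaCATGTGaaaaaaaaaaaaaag
GAT4, chrIX:380543-380578, minus strand: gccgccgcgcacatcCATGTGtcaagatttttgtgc
In INO1, ITR1, CDS1, CPT1 and ARG4 the first core shown is followed by at least 4 A bases. The core of FAS2 is followed by 4 A bases as well when read on the strand opposite the gene.

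Genes with the core were found in every class of difference. Counted on either strand, CATGTG was in 416 of all 6001 promoter windows, 6.93%. Among the 44 genes at least 2-fold lower for which a window could be read, INO4 left out, 9 held it, 20.5%. These were INO1, OPI3, ITR1, CDS1, GAT4, ARG4, SGA1, SPS2 and YCL001W-A. Among genes 1.5-fold to 2-fold lower it was in 12 of 98 windows, 12.2%, and among genes at least 1.5-fold higher in 9 of 46, 19.6%. The window mattered: with the 500 bases before the start codon, an alternative chosen after seeing the data, CATGTG was in 13.2% of all promoters, in 14 of 44 (31.8%) of the 2-fold lower genes, in 15 of 98 (15.3%) of the 1.5-fold to 2-fold lower genes and in 7 of 46 (15.2%) of the higher genes. The longer form CATGTGA, which contains the core, was in 1.98% of all windows, in 5 of 44 (11.4%) of the 2-fold lower genes, in 7 of 98 of the 1.5-fold to 2-fold lower genes and in 1 of 46 of the higher genes. CACGTG, the site that several other helix-loop-helix factors bind, was in 2.92% of all windows and in 0 of 44, 2 of 98 and 1 of 46 of these classes. By list, CATGTG was in 4 of 8 windows of the CDP-diacylglycerol route, in 3 of 10 of the Kennedy route and in 3 of 13 of the inositol genes. On the CDP-diacylglycerol route the genes with it were OPI3, CHO1, PSD2 and PGS1, the last 2 close to WT at -0.10 and -0.03. On the Kennedy route they were CPT1 (-0.61), CKI1 (-0.31) and EKI1 (-0.22). The windows of CHO2, HNM1, SAM2, FAS1 and ACC1, all 2-fold lower, held no match in these letters.

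**Figure D3:**
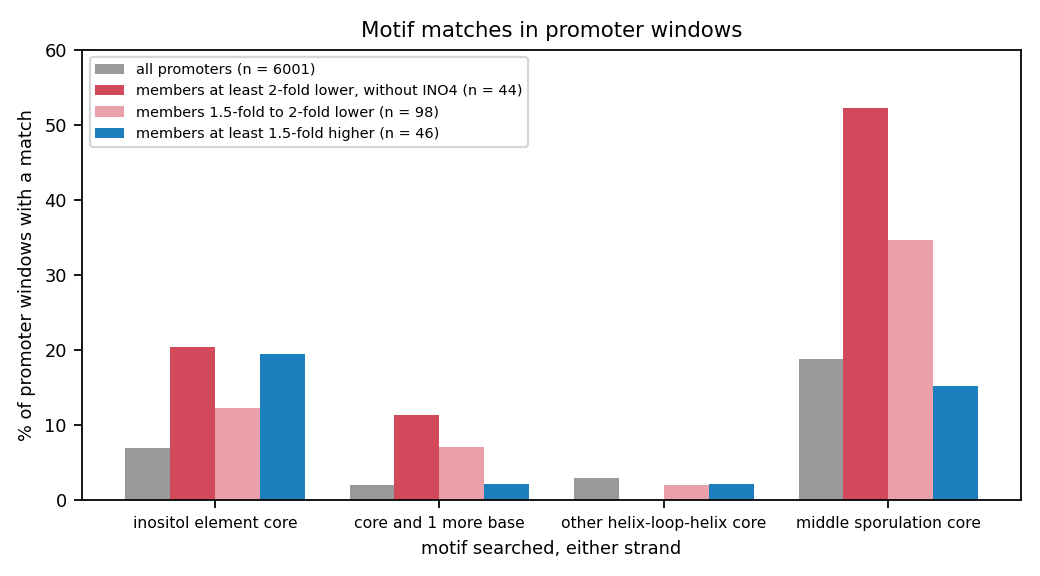
Share of promoter windows with a match on either strand, for all promoters and for genes at least 2-fold lower, 1.5-fold to 2-fold lower and at least 1.5-fold higher in ino4, for CATGTG (inositol element core), CATGTGA (core and 1 more base), CACGTG (other helix-loop-helix core) and CACAAA (middle sporulation core). The tallest bar is CACAAA in the 2-fold lower genes, 52.3% against 18.8% of all promoters.

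Fatty acid synthesis, which supplies the acyl chains of phospholipids, was lower at acetyl-CoA carboxylase and at fatty acid synthase. FAS1, which codes for the beta subunit of fatty acid synthase, was at 169 FPKM in WT and 67.1 in ino4, a difference of -1.32. ACC1, the acetyl-CoA carboxylase gene, was at 107 and 51.5 FPKM, a difference of -1.04. FAS2, the alpha subunit gene, was at 143 and 90.5 FPKM, a difference of -0.65. ACC1 and FAS1 were lower in bas1 as well, at 58.1 and 114 FPKM, a comparison that uses the same WT values. Named after their values were seen, the desaturase gene OLE1 was at 4471 FPKM in WT and 3016 in ino4 and the fatty acyl-CoA synthetase gene FAA1 at 630.1 and 432. Of 19 genes of fatty acid synthesis, elongation and activation, 15 were below WT (51.3% of all genes), with a median of -0.18. Of these, 2 were 2-fold lower (0.946% of all genes) and 3 were 1.5-fold lower (3.02%). The highest of the list was ACS1, an acetyl-CoA synthetase gene, at 0.14. With a pseudocount of 5, ACC1 was at -0.98 and no longer 2-fold lower. Genes that break fatty acids down in peroxisomes lay around WT, 8 of 18 below it with a median of 0.05, from -0.37 for the importer gene PXA2 to 0.28 for the ATP carrier gene ANT1.

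The methyl groups of phosphatidylcholine come from S-adenosylmethionine, and 2 genes of that cycle stood well below the rest of the sulfur pathway. SAM2, one of a pair of S-adenosylmethionine synthetase genes, was at 219.7 FPKM in WT, 256 in bas1 and 47.4 in ino4, a difference of -2.19. Its paralog SAM1 was at 25.6 FPKM in WT and 28.3 in ino4. Of the 30-base words of SAM2, 5.33% occur elsewhere in the genome, so few reads could be shared with SAM1. SAH1, whose product removes the S-adenosylhomocysteine left by methylation, was named after its value was seen, at 332 FPKM in WT and 173 in ino4, a difference of -0.93. Methionine synthase, MET6, was at -0.29. Of the sulfate assimilation genes, MET14 differed by -0.08, and MET5, MET10, MET16 and MET3 were above WT. MET3, the ATP sulfurylase gene, was highest at 43.8 FPKM in WT and 73.5 in ino4, a difference of 0.73. Over the whole list 8 of 26 genes were below WT (51.3% of all genes), with a median of 0.17. In it 2 genes were at least 1.5-fold lower (3.02% of all genes) and 2 at least 1.5-fold higher (1.09%). CACGTG was in 6 of the 26 promoter windows (2.92% of all windows) and CATGTG in 3 (6.93% of all windows).

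The other membrane lipids did not share the pattern of the phospholipid genes. Of 25 genes of the mevalonate and ergosterol pathway, 6 were below WT, none reached 1.5-fold and the median was 0.16, from -0.13 for UPC2 to 0.52 for ECM22, paralogous regulators of sterol genes. Of 20 sphingolipid genes, 12 were below WT with a median of -0.03. They ranged from -0.47 for CSH1, a mannosylinositol phosphorylceramide synthase gene, to 0.43 for ISC1, a phospholipase gene that acts on inositol-containing sphingolipids.

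Genes that build the spore were lower in ino4 as a group. They fall into 3 lists: the spore wall, the outer plaque and prospore membrane, and sporulation kinases, septins and other genes of middle sporulation. Together they hold 55 genes compared, of which 46 were below WT (51.3% of all genes), 20 were at least 1.5-fold lower (3.02% of all genes) and 7 were at least 2-fold lower (0.946%), with a median of -0.44 against -0.01 for all genes. None was 1.5-fold higher. The bas1 values lay on the other side of WT, with 50 of the 55 above it (51.9% of all genes) and a median of 0.69. Both comparisons use the same WT values. In a bulk culture, fewer cells at a stage and less RNA per cell cannot be told apart.

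The spore wall list had the lowest median of the 43 lists examined, -0.55, with 21 of 25 genes below WT. Because the lists were chosen with earlier results of these data known, this rank is a description only. With genes of 600 bp or longer alone, the kinases, septins and other middle genes were lower at -0.58 and the spore wall list was again at -0.55. SPS2, a GPI-anchored protein gene needed for a normal spore wall, was at 372 FPKM in WT, 687 in bas1 and 148 in ino4. SSP2, which is needed for the outer layers of the wall, was at 226 FPKM in WT and 96.8 in ino4, a difference of -1.21. GAS2, a glucan-modifying enzyme gene of the wall, was at 47.4 and 21.2 FPKM, and SPS22, a relative of SPS2, at 197 and 92.1. With a pseudocount of 5, GAS2 was just short of 2-fold lower. Named after their values were seen, CDA1 and CDA2, the deacetylase genes that make the chitosan layer, differed by -0.77 and -0.75. DIT1, the first enzyme gene of the dityrosine layer, differed by -0.04 and CHS3, the chitin synthase gene that also acts in budding cells, was highest at 0.23.

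Among the 18 genes of the outer plaque and prospore membrane, 15 were below WT (51.3% of all genes), with a median of -0.36. Of these, 5 were lower by 1.5-fold or more (3.02% of all genes). SPO19, which codes for a GPI-anchored protein of the prospore membrane, was at 551 FPKM in WT, 1169.8 in bas1 and 253 in ino4, a difference of -1.12. SSP1, the leading-edge protein gene of that membrane, was named after its value was seen, at 125 FPKM in WT and 73.4 in ino4. The plaque component genes SPO21 and MPC54 differed by -0.50 and -0.33, and SMA2 was highest at 0.02. Among the 12 sporulation kinases, septins and other middle genes, 10 were below WT with a median of -0.47. SPS1, a protein kinase gene needed for closing the prospore membrane, was at 72.2 FPKM in WT, 157 in bas1 and 26.7 in ino4, a difference of -1.40. SPS4 was the most abundant of the genes that were 2-fold lower, at 1897 FPKM in WT and 885 in ino4. The sporulation septin genes SPR3 and SPR28 were at -0.77 and -0.58. The 5 septin genes of budding cells had a median of 0.00, from -0.25 for CDC3 to 0.07 for CDC11.

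**Figure D4:**
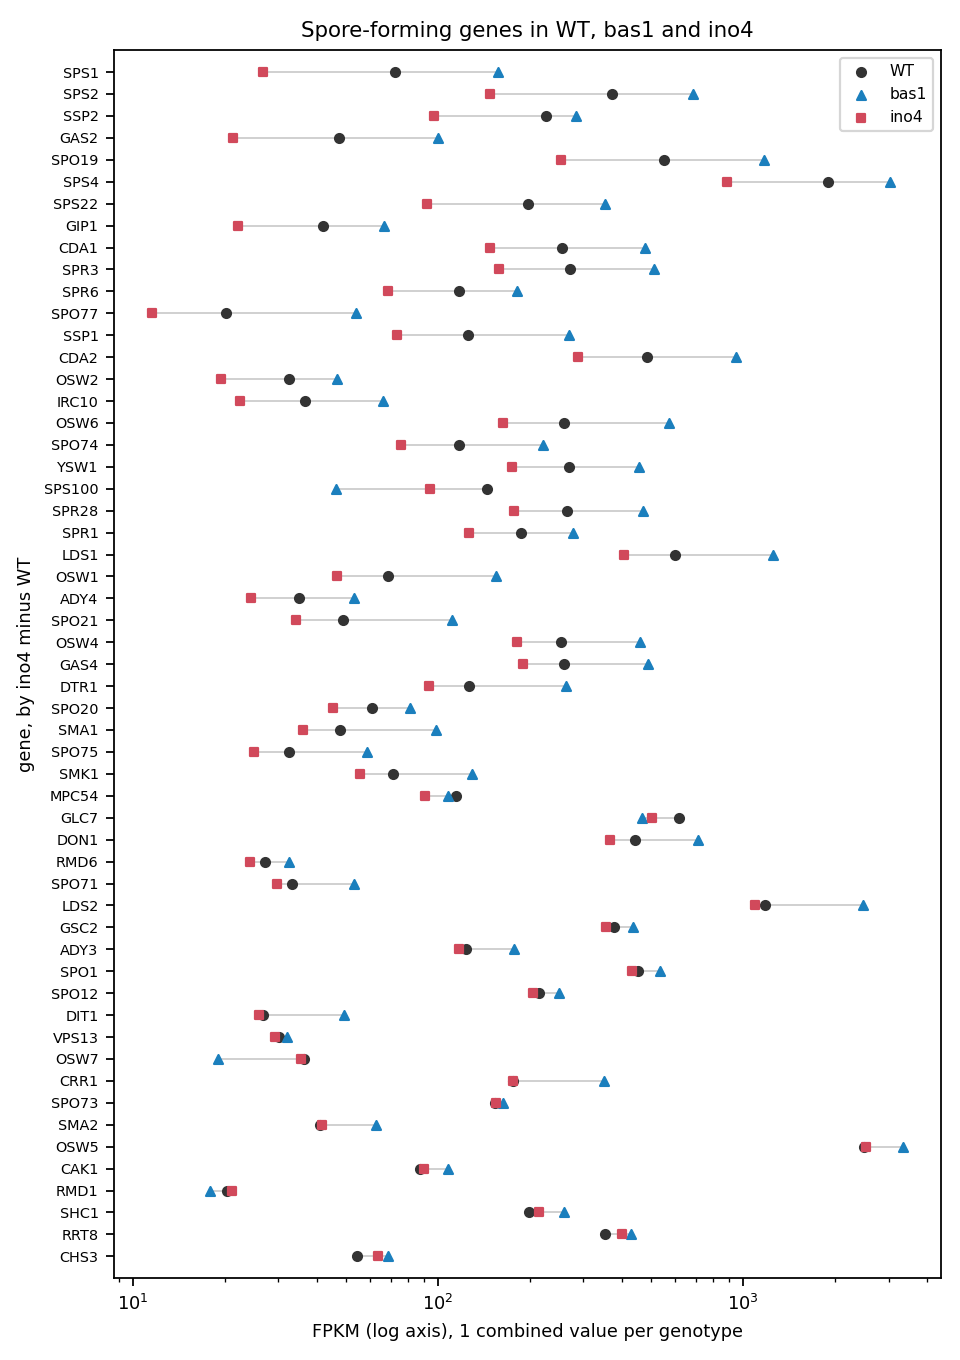
FPKM of the 55 spore-forming genes in WT (circles), bas1 (triangles) and ino4 (squares) on a log axis, ordered by the ino4 minus WT difference. For most genes ino4 lies left of WT and bas1 right of it. The bottom 9 genes, from CRR1 to CHS3, have ino4 values at or above WT.

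SPS1 and SPS2 were the only neighbouring pair of genes that were both 2-fold lower. They lie in tandem on chromosome IV, SPS2 at 1483788 to 1485296 and SPS1 ending at 1487031 in sacCer2, 262 bp apart, and the genes that flank them, URC2 and AGE1, differed by 0.24 and -0.32. The middle sporulation element, which the meiotic activator Ndt80 and the repressor Sum1 bind, has the core CACAAA. Windows of 36 bases from R64 show these letters, in capitals and on either strand (TTTGTG when opposite the gene), in the spore genes with the lowest values. The match of SPS1 lies directly before the start codon, at positions -6 to -1 counted from it, and that shown for SPS2 at -30 to -25, while the others lie farther upstream.
SPS1, chrIV:1487024-1487059, minus strand: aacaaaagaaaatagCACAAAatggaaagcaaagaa
SPS2, chrIV:1485313-1485348, minus strand: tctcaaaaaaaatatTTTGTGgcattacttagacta
SSP2, chrXV:790060-790095, minus strand: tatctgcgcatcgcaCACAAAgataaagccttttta
GAS2, chrXII:815934-815969, plus strand: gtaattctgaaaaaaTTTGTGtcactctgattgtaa
SPO19, chrXVI:304210-304245, plus strand: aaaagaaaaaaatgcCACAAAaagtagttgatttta
SPS4, chrXV:903044-903079, minus strand: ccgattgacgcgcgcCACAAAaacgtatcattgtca
SPS22, chrIII:42049-42084, plus strand: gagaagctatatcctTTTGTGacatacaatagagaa
CACAAA on either strand was in 18.8% of all promoter windows. It was in 23 of 44 windows (52.3%) of the 2-fold lower genes, in 34 of 98 (34.7%) of the 1.5-fold to 2-fold lower genes and in 7 of 46 (15.2%) of the genes at least 1.5-fold higher. By list it was in 16 of 18 windows of the outer plaque and prospore membrane genes, 15 of 25 of the spore wall genes and 7 of 12 of the kinases, septins and other middle genes. CATGTG was in 3 of the 25 spore wall windows and in 0 of 18 and 0 of 12 of the other lists (6.93% of all windows).

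Genes of meiotic break formation, synapsis and strand exchange were near WT. Of 13 genes of meiotic break formation, 4 were below WT and the median was 0.10, from -0.12 for XRS2 to 0.32 for REC102, and SPO11, the gene of the enzyme that makes the breaks, was at 83.9 FPKM in WT and 102 in ino4. Of 16 genes of the chromosome axis and synapsis, 10 were below WT with a median of -0.04, from -0.25 for ECM11 to 0.15 for the cohesin gene REC8. Of 17 genes of strand exchange and repair, 7 were below WT with a median of 0.05, and RAD17, a checkpoint gene, was lowest at -0.22. None of these genes was 1.5-fold apart. Of 15 regulators of meiotic entry, 11 were below WT with a median of -0.09, and 1 was at least 1.5-fold lower (3.02% of all genes). This lowest gene was PES4, an RNA-binding protein gene of middle sporulation, at 236 FPKM in WT and 137 in ino4 (502 in bas1), and the highest was the RNA-binding protein gene RIM4 at 0.29. Of 19 genes of meiotic cyclins, divisions and exit, 13 were below WT with a median of -0.11, and 1 was at least 1.5-fold lower (3.02% of all genes). They ranged from -0.64 for that gene, the S-phase cyclin CLB6, to 0.36 for the kinase inhibitor SIC1. CLB6 was low, at 10.9 FPKM in WT and 6.65 in ino4. With a pseudocount of 5 it was at -0.45 and with quantile normalization at -0.50, both short of 1.5-fold.

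Markers of meiotic stage and of other cells were summed in each genotype. The 7 markers of meiotic cells (IME1, IME2, SPO11, REC8, HOP1, ZIP1 and DMC1) summed to 16379 FPKM in WT and 15308 in ino4, 3 of them below WT. IME1 was the largest part of this sum, at 7919 FPKM in WT and 6261 in ino4, while SPO11, REC8, HOP1 and DMC1 were above WT. The 7 markers of cells past the pachytene exit, the point at which Ndt80 starts the meiotic divisions, were all below WT and summed to 2718 FPKM in WT, 4572 in bas1 and 1478 in ino4. Most of each sum was SPS4 alone, at 1897 FPKM in WT, 3032 in bas1 and 885 in ino4. SPS4, SSP2, SPO21 and SPS1 are among these 7 and also in the spore-forming lists. The others were close to WT or moderately lower, NDT80 at 282 FPKM in WT and 277 in ino4, CLB1 at -0.05 and the polo kinase gene CDC5 at -0.37. The part of meiotic stage in the lower spore-forming values was not tested. Of the 11 markers of haploid cells 10 were listed by name, with 8 below WT, a sum of 663 FPKM in WT and 636 in ino4, and none at 0. Most of this sum was AGA2, at 453 FPKM in WT and 437 in ino4. The short haploid genes MFA1 and MFA2 were not among the markers. They are listed higher in ino4, MFA1 at 335 FPKM in WT and 607 in ino4 and MFA2 at 62.3 and 158. The 7 markers of budding cells summed to 1148 FPKM in WT and 1161 in ino4, 4 of them below WT and none at 0. Of 20 haploid and mating genes compared, 13 were below WT with a median of -0.03, from -0.40 for STE12 to 0.26 for BAR1. Of 19 G1 and daughter cell genes, 10 were below WT with a median of 0.00, and MBP1, a G1 transcription factor gene, was lowest at -0.36.

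Ribosome biogenesis genes lay slightly but almost uniformly below WT. Of 43 genes that process ribosomal RNA and assemble ribosomal subunits, 41 were below WT (51.3% of all genes), with a median of -0.28. Of these, 6 were at least 1.5-fold lower (3.02% of all genes) and 2 at least 2-fold lower (0.946%). The bas1 median of the 43 genes was -0.02. CBF5, the pseudouridine synthase gene, was at 16.1 FPKM in WT and 7.20 in ino4, and UTP6, a gene of the small-subunit processome, at 10.4 and 4.63. NOP1, the fibrillarin gene, was the lowest of the members at 20 FPKM and over and was named after its value was seen, at 52.4 FPKM in WT and 30.4 in ino4. The highest of the list, NHP2, was at 0.03. Most of these genes had low values, and low genes as a whole leaned below WT. In the 24 members whose higher value was under 20 FPKM, 23 were below WT with a median of -0.40, against 453 of all 749 genes in that range with a median of -0.06. In the 19 members at 20 FPKM and over, 18 were below WT with a median of -0.19, against 2043 of all 4116 genes and a median of 0.00. With a pseudocount of 5 neither CBF5 nor UTP6 remained 2-fold lower, at -0.79 and -0.67. CATGTG was in 2 of the 43 promoter windows (6.93% of all windows) and CACAAA in 4 (18.8% of all windows).

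Among nutrient transport and storage genes, the hexose transport and phosphate response lists held several lower genes, and the zinc and storage carbohydrate lists 1 each that was 2-fold lower. Of 18 hexose transport genes 9 were below WT with a median of 0.02, but 3 were at least 2-fold lower (0.946% of all genes) and 5 at least 1.5-fold lower (3.02% of all genes). HXT4, a glucose transporter gene, was at 18.7 FPKM in WT and 6.08 in ino4. HXT10, a family member, was at 50.1 FPKM in WT, 92.2 in bas1 and 22.4 in ino4. HXT7 was at 7.30 and 2.65 FPKM, which is uncertain because 95.8% of its 30-base words occur elsewhere in the genome, and it was at -0.68 with a pseudocount of 5. The highest of the list was HXT11 at 0.42, which is uncertain as well, with 78.4% of its words found elsewhere. Of 22 phosphate response genes 18 were below WT (51.3% of all genes) with a median of -0.14, and 3 were at least 1.5-fold lower (3.02%). In bas1 the median was -0.32, against the same WT values, and 4 were 2-fold lower (1.5% of all genes). PHM6, a gene induced by low phosphate, was at 78.5 FPKM in WT and 36.3 in ino4. Named after their values were seen, the phosphate transporter genes PHO84 and PHO89 differed by -0.90 and -0.79 in ino4, and by more in bas1, -1.69 and -1.64. Of 11 zinc response genes 7 were below WT with a median of -0.16, and ZRT1, the high-affinity zinc transporter gene, was at 64.7 FPKM in WT and 31.5 in ino4. With a pseudocount of 5, ZRT1 was at -0.93. Of 24 iron uptake and storage genes 17 were below WT with a median of -0.05, from -0.39 for CTH1 to 0.31 for FET3, and none was 1.5-fold apart. Of 19 trehalose and glycogen genes 9 were below WT with a median of 0.02, and the single 2-fold difference was SGA1, the glucoamylase gene that is made in sporulation, at 65.6 FPKM in WT and 26.3 in ino4.

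Amino acid genes leaned slightly above WT, with 2 departures. LEU2, the gene of the third enzyme of leucine synthesis, was at 48.4 FPKM in WT, 81.1 in bas1 and 145 in ino4, a difference of 1.57. It was the second highest gene of all and the only one of the 8 that were 2-fold higher with a level over 100 FPKM. NFS1, the next gene on chromosome III, differed by 0.22. The other 10 genes of branched-chain amino acid synthesis ranged from -0.13 for ILV5 to 0.36 for BAT1. The list had 1 of 11 genes below WT and a median of 0.18. ARG4, the argininosuccinate lyase gene, was at 171 FPKM in WT, 150.0 in bas1 and 81.7 in ino4, a difference of -1.06, and its neighbours on chromosome VIII, YSC83 and DED81, were at -0.05 and 0.29. Of 12 genes of arginine synthesis and breakdown 5 were below WT with a median of 0.17, and the highest was the arginase gene CAR1 at 0.46. LEU2 and ARG4 are common marker genes of laboratory strains, and whether the strains differ at them was not tested. Of 9 lysine synthesis genes 0 were below WT, with a median of 0.23, and LYS9 was highest at 19.8 FPKM in WT and 32.3 in ino4. Of 11 purine synthesis genes 4 were below WT with a median of 0.14 in ino4 and -0.56 in bas1, and in ino4 they ranged from -0.34 for ADE4 to 0.42 for ADE3.

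**Figure D5:**
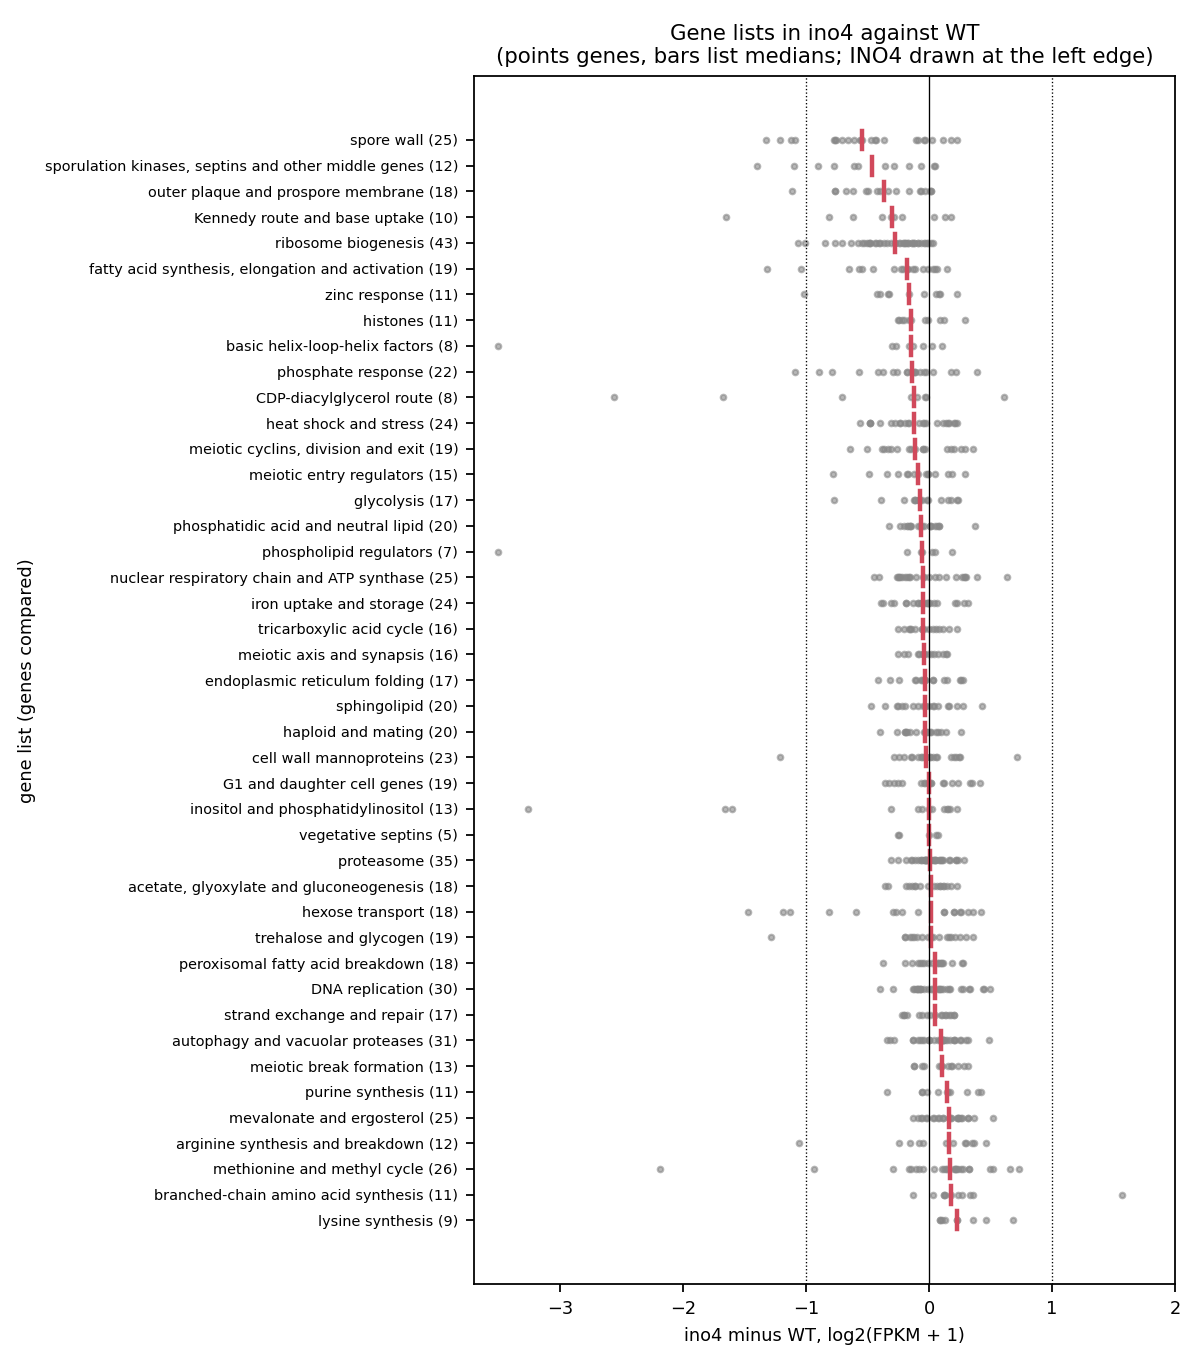
Each point is a gene, placed by its ino4 minus WT difference of log2(FPKM + 1), and each bar is the median of its list, with the number of genes compared in brackets. The spore wall, middle sporulation and prospore membrane lists lie lowest, at -0.55, -0.47 and -0.36, and lysine synthesis highest at 0.23. In the inositol and CDP-diacylglycerol lists a few points lie far left while the medians stay near 0.

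Energy metabolism and protein turnover were near WT. In 17 glycolysis genes, 12 were below WT with a median of -0.07 in ino4 (-1.47 in bas1), from -0.77 for TDH1 to 0.23 for ADH2. The acetate, glyoxylate and gluconeogenesis genes had 9 of 18 below WT with a median of 0.02, the tricarboxylic acid cycle genes 10 of 16 with -0.05, and the nuclear genes of the respiratory chain and ATP synthase 15 of 25 with -0.05. In these lists PCK1 (-0.36), KGD2 (-0.25) and QCR9 (-0.45) were lowest, and ACO1 (0.23, in 2 of the lists) and CYC1 (0.64) were highest. The proteasome genes had 17 of 35 below WT with a median of 0.01, from -0.31 for the regulator RPN4 to 0.29 for PUP1. Autophagy and vacuolar protease genes had 12 of 31 below WT with a median of 0.09, from -0.34 for ATG5 to 0.49 for ATG10. Endoplasmic reticulum folding genes had 10 of 17 below WT with a median of -0.04, from -0.42 for DER1 to 0.28 for JEM1. Heat shock and stress genes had 16 of 24 below WT with a median of -0.12, from -0.56 for HSP104 to 0.23 for HSP42. DNA replication genes had 13 of 30 below WT with a median of 0.05, from -0.40 for ORC3 to 0.49 for RNR4. The 11 histone genes had a median of -0.15 with 8 below WT, from -0.25 for HHF2 to 0.29 for HHT1. TDH1, ADH2, HHF2 and HHT1 share 27.1%, 18.8%, 42.4% and 25.1% of their 30-base words with other places in the genome, so their values are uncertain. Among 23 cell wall mannoprotein and wall enzyme genes, 12 were below WT with a median of -0.02, and UTR2, a wall cross-linking enzyme gene, was the one 2-fold difference at 131 FPKM in WT and 56.3 in ino4.

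Of the 46 genes 2-fold lower, 27 belonged to at least 1 of the 43 lists, which hold 773 of the 4865 genes compared. The lists were chosen with earlier results of these data known, so this count is a description only. The other 19 belonged to none. Several of those 19 were among the 25 lowest genes. YOR214C, now called SPR2 and described as a spore wall protein gene, was at 746 FPKM in WT and 221 in ino4 (1222 in bas1), the fifth lowest difference of all. GAT4, a zinc-finger factor gene of the GATA family, was at 21.3 FPKM in WT and 5.68 in ino4 (32.6 in bas1). PFS1, which is needed for prospore membrane formation, was at 58.1 FPKM in WT and 23.4 in ino4 (121 in bas1). YJL160C, a PIR-family wall protein gene now called PIR5, was at 134 FPKM in WT and 52.8 in ino4 (247 in bas1). YGL230C, an open reading frame with no described role, was at 53.4 FPKM in WT, 55.3 in bas1 and 18.4 in ino4. SRD1, linked to ribosomal RNA processing, was at 19.9 and 7.81 FPKM, and the ribosomal protein paralog gene RPL22B at 9.11 and 3.15. PAU8 was lower at 6.36 and 1.61 FPKM but shares 74.9% of its 30-base words with other places in the genome, and the short open reading frame YIL102C was at 15.5 and 6.25. With a pseudocount of 5, SRD1, RPL22B, PAU8 and YIL102C were at -0.96, -0.79, -0.78 and -0.87, short of 2-fold. Outside the naming rule, and named after its value was seen, CIN5, a stress-related bZIP factor gene, was abundant at 850.4 FPKM in WT and 396 in ino4 (342 in bas1).

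The genes that were 2-fold higher were mostly short and weakly represented. Of the 8, 7 were under 400 bp long, 6 had a level under 10 FPKM and 6 carry only a systematic name. Over all 4865 genes compared these were 236, 215 and 768. The 6 with only a systematic name were YKL102C, YKR032W, YGR139W, YEL014C, YHR130C and YBR209W, with WT values from 1.03 to 3.26 FPKM and ino4 values from 5.29 to 8.67. They reached the minimum of 5 FPKM in ino4 alone, so they had to be higher in ino4. With a pseudocount of 5 these 6 lay between 0.56 and 0.83, and LEU2 and NME1 alone were 2-fold higher. Of the 46 lower genes 7 were under 400 bp and 8 had a level under 10 FPKM. NME1, the gene of the RNA component of RNase MRP, a ribosomal RNA processing enzyme, was at 8.89 FPKM in WT and 27.2 in ino4 (5.27 in bas1). The related RNase P RNA gene RPR1, named after its value was seen, was at 9.67 FPKM in WT and 6.64 in ino4. Just below 2-fold came YAL065C (0.99), FLO9 (0.92) and YAL064W-B (0.91), which lie near the left end of chromosome I and share 54.2%, 73.7% and 63.1% of their 30-base words with other places in the genome, so reads could be shared among flocculin genes and their values are uncertain. Chromosome I was also the chromosome with the highest median, 0.11 over 66 genes, while the other nuclear chromosomes lay between -0.03 and 0.03. Of the next highest genes, YDR344C was at 0.91, ANB1, the hypoxic form of a translation factor gene, at 0.90, the dUTPase gene DUT1 at 0.78, the recombination gene RAD59 at 0.77, YLR042C at 0.84 and YNR014W at 0.81. RPL1A was at 0.83 with 88.0% of its words found elsewhere. The remaining genes among the 25 highest, YMR254C, YDL196W, YBL109W, YHR210C, YJR157W and YLR112W, lay between 0.77 and 0.89, each under 13 FPKM in both genotypes.

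The share of 2-fold differences varied with level and length. In genes whose higher value was 5 to 10 FPKM, 3.72% were 2-fold lower and 2.79% higher, and the median size of a difference was 0.215. From 20 to 50 FPKM these were 0.145% and 0.0727%, with a median size of 0.146. At 500 FPKM and over 1.71% were lower and 0 of 350 were higher. By length, genes under 400 bp were 2-fold lower and higher in equal share, 2.97% each, and genes of 2000 bp and over were 2-fold lower in 0.267% and higher in 0 of 1122. At the limits of the rule, YBL109W (2.33 and 5.06 FPKM in WT and ino4) and UTP13 (5.10 and 2.74) were just inside the minimum of 5 FPKM, and YKR104W (3.30 and 4.92) and UTP22 (4.97 and 4.22) just outside. YDR543C and ELC1, both 300 bp long, were just inside the length limit at -0.06 and -0.64, and QCR10 and YNR034W-A, both 297 bp, just outside at 0.00 and 0.10.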

How the data were processed

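Per the labels' protocols, cells were grown in acetate presporulation medium, moved to potassium acetate and collected at 4 h, and RNA was extracted with hot phenol and made into libraries with an Illumina RNA kit. STAR, Cufflinks and the genome build sacCer2 were used, per the submitters' processing notes, which give no roles. No version, setting, use of strand, depth or way of combining the 2 samples of a genotype is given in the sources used here. In the deposited table the authors give FPKM values, 1 column per genotype per the file headers.

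Of 6932 entries, 727 at 0 in WT or ino4 were left out, since an exact 0 can be a failed estimate, then 211 under 5 FPKM in both, 94 with several names or none, 215 under 300 bp and 820 that overlap another entry. Values were taken as log2(FPKM + 1) and subtracted, with no further scaling, and a difference of 1 was called 2-fold and 0.585 was called 1.5-fold. The planned limma test needs values per sample and was replaced by this description. Members and the 43 gene lists (885 symbols, 773 matched) were chosen with earlier results of these data known. Named genes were INO4, INO2, OPI1 and the neighbours of INO4, all genes of the inositol, CDP-diacylglycerol, Kennedy and regulator lists, the 25 lowest and 25 highest, from other lists those 2-fold apart or else the highest and lowest, and the genes at the limits of the rule. Some items that this takes are not reported here. Gene names, start codons and promoter windows (250 bases before to 50 after the start codon) came from RefSeq assembly R64, matched by name for 4825 of 4865 genes, with R64 positions used besides only to settle names and to count shared 30-base words. Positions of genes are those of the table (sacCer2), counted from 1. Steps were checked on simulated data. Python 3.11.15, numpy 2.4.6, pandas 2.3.3, Biopython 1.88 and matplotlib 3.10.9 were used. Alternatives covered the pseudocount (0.1 and 5), the FPKM minimum (none, 1 and 20), length, overlap, the fold rule, 3 scalings and, added later, a promoter window of 500 bases before the start codon.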

Additional observations from a re-analysis of the deposited data

How the results depend on the processing

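Depth is unknown and each genotype has 1 combined value, so no error can be set beside a difference and leaving out a sample could not be run. No paired analysis was possible because the table has 1 combined column per genotype and its columns carry no replicate number. The count of 2-fold higher genes, 8 as reported, was 2 with a pseudocount of 5, 2 with a minimum of 20 FPKM, 20 with all lengths, 1 at 600 bp or longer, 24 with overlapping entries kept and 53 at 1.5-fold. The count of lower genes, 46 as reported, was 30 with a pseudocount of 5, 78 with overlapping entries kept and 147 at 1.5-fold. Centring on the median and a trimmed mean of log ratios gave 46 and 8, and quantile normalization 41 and 10. Of 216 list counts under alternatives 17, from 12 of 18 results, were classed as moved, and so were 5 of 16 promoter shares. Of 473 list medians under alternatives 7 moved by over 0.1. The hexose transport median, 0.02 as reported, was -0.0859 with a minimum of 1 FPKM, with no minimum and with overlapping entries kept, and 0.12 with a minimum of 20. The histone median was -0.0129 at 600 bp or longer, the CDP-diacylglycerol route median -0.43 with a minimum of 20 FPKM, and the median of sporulation kinases, septins and other middle genes -0.58 at 600 bp or longer, which is then below that of the spore wall list. Of 1489 values of single genes under alternatives 18, of 16 genes, were no longer 2-fold, 6, of 5 genes, became 2-fold and 22 moved without crossing. The cause of these shifts was not tested.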

Other observations

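Some genes outside the comparison for length or overlap differed by amounts as large as many inside it, and are listed here as values only. The a-factor precursor genes MFA1 and MFA2, both under 300 bp, are listed at 335 and 62.3 FPKM in WT, 248 and 37.2 in bas1 and 607 and 158 in ino4, while the a-agglutinin subunit gene AGA2, also short, is listed at 453 and 437 in WT and ino4. STE3, the receptor gene for a-factor, overlaps another entry and is listed at 15.4 FPKM in WT and 9.98 in ino4. OSW3, a spore wall gene, overlaps another entry and is listed at 111 FPKM in WT, 245 in bas1 and 65.4 in ino4. CAR2, the ornithine aminotransferase gene, overlaps another entry and is listed at 290.0 and 410.3 FPKM in WT and ino4.

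The 11 non-coding RNA genes compared besides NME1 lay on both sides of WT. The spliceosomal RNA genes LSR1 and SNR19 differed by 0.44 and 0.03, the telomerase RNA gene TLC1 by 0.04 and the signal recognition particle RNA gene SCR1 by -0.18. The 6 small nucleolar RNA genes ranged from -0.41 for SNR30 to 0.62 for SNR37. These genes were named after their values were seen.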
